A study of Mus musculus with 6 samples.

Results

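Rbpj encodes RBPJ, the protein that binds DNA at Notch target genes and carries the Notch signal to them, and 8 genes for its known partners were described with it. The partners were the coactivators Maml1, Maml2, Maml3 and Snw1 and the corepressors Spen, Ncor1, Kdm5a and L3mbtl3. Members were the rows of the deposited expression table whose gene name is one of these, and all 9 were found among 23472 named genes. The study compared liver sinusoidal endothelial cells, the fenestrated endothelium of the liver's smallest vessels, of RBPjcKO mice and wild-type mice by RNA sequencing. RBPjcKO is a conditional deletion of Rbpj that the labels place in endothelium. Both groups were C57BL/6 mice aged 7 to 8 weeks, and both received tamoxifen intraperitoneally. The promoter that drives the recombinase, the deleted exons and the way the cells were purified do not appear in the labels. Each group held 3 libraries. Nothing says that these are separate animals, so a p-value reflects spread among libraries that may be technical.

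In the Notch pathway a ligand on one cell releases the intracellular domain of a Notch receptor on its neighbour. That domain enters the nucleus, joins RBPJ on DNA, and the pair recruits a Mastermind-like protein and histone acetyltransferases to switch target genes on. Without Notch, RBPJ can hold corepressors such as SPEN and NCOR1, histone deacetylases, the H3K4 demethylase KDM5A and the methyl-lysine reader L3MBTL3 at the same sites. In liver endothelium the pathway is known for its part in arterial fate and in keeping the sinusoidal lining differentiated.

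Named genes received 38740589 to 40459702 counts in RBPjcKO libraries and 30958761 to 38203775 counts in wild-type libraries. Liver endothelial markers were abundant in every library: 10 of them, Stab2, Lyve1 and Cdh5 included, summed to 23027 to 27120 CPM (counts scaled to library size by TMM) in RBPjcKO libraries and 23822 to 27270 CPM in wild-type libraries. Of these, edgeR called 1, Clec4g, which was lower (log2 fold change -0.89, adjusted p = 0.0123), and DESeq2 called 5, with 3 higher and 2 lower. Over all 14869 genes tested, edgeR called 2489 and DESeq2 called 3632. Markers of other liver cells were present as well. The 24 hepatocyte markers summed to 2346 to 6374 CPM in RBPjcKO libraries and 1586 to 2897 CPM in wild-type libraries, with RBPjcKO replicate 3 highest. Of the 24, edgeR called 6 higher and DESeq2 called 14 higher, and 16 had an unadjusted p under 0.05 in edgeR. The 10 Kupffer cell markers summed to 652 to 2014 CPM in RBPjcKO and 1336 to 2847 CPM in wild-type libraries. None of these was called in edgeR, 3 had an unadjusted p under 0.05, and DESeq2 called 2 (Emr1 and Csf1r), both lower. The 9 stellate cell and fibroblast markers summed to 1797 to 2894 CPM in RBPjcKO and 2855 to 3217 CPM in wild-type libraries, with 2 called lower (3 by DESeq2). The 5 cholangiocyte markers summed to 80.2 to 119 CPM in RBPjcKO and 184 to 374 CPM in wild-type libraries, with 3 called lower (4 by DESeq2). The 8 lymphocyte markers summed to 14.1 to 38.9 CPM in RBPjcKO and 28.8 to 34.0 CPM in wild-type libraries, with 2 called higher (2 by DESeq2). No marker of any of these lists was without a count.

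Promoter windows are shown for the 2 members whose transcript level differed between the groups, Rbpj and Maml3, and for Spen, the member whose window held the longest match to the RBPJ site. Each runs from 250 bases before to 50 bases after a RefSeq transcript start on GRCm38.p6, 5′ to 3′ along the gene, and capitals mark the core of the RBPJ site, TGGGAA, or its complement TTCCCA. Windows were found for 7 of the 9 members, 11 in all.
Rbpj, chr5:53590096-53590395, plus strand: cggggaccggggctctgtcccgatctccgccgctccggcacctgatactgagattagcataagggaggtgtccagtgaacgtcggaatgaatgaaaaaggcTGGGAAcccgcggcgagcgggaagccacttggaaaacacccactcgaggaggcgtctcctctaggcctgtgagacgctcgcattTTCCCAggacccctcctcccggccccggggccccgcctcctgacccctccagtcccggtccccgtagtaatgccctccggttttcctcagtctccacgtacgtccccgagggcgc
Maml3, chr3:52104957-52105256, minus strand: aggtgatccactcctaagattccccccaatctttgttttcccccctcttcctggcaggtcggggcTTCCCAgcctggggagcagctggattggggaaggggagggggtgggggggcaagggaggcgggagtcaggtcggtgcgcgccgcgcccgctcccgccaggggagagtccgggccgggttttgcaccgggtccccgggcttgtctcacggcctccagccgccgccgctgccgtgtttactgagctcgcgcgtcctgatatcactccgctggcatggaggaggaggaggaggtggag
Spen, chr4:141538548-141538847, minus strand: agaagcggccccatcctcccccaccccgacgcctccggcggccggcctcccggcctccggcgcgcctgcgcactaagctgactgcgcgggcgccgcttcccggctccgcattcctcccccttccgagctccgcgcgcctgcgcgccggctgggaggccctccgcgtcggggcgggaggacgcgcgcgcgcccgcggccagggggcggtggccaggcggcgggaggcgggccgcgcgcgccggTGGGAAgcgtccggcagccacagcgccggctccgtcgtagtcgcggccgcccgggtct
The core was searched on both strands and stood in 6 of the 11 member windows, against 25.6% of 32817 RefSeq promoter windows of the same length. The longer form GTGGGAA, which contains the core, stood in the Spen window alone, with its core beginning 8 bases before the start, and in 6.39% of all windows. The other Rbpj window overlaps the one shown and its single match, 205 bases before its own start, is the second match of that window, so 1 site counts in both. Both Rbpj windows lie inside the gene, downstream of its deposited start at 53555779, for which no window was found. In the Rbpj window shown the matches began 149 and 65 bases before the start, and in the Maml3 window the match began 185 bases before it. Windows with no match belonged to Maml1, to both L3mbtl3 starts, to 1 Maml2 start and to 1 Ncor1 start. A match is a string of letters and no measure of binding, and no binding was measured here.

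Rbpj itself (chromosome 5, 53555779 to 53657445, GRCm38, plus strand) was lower in the RBPjcKO cells and was not absent. Its level was 17.0, 19.8 and 17.6 CPM in RBPjcKO libraries, against 41.6, 46.9 and 45.5 CPM in wild-type libraries. The groups were well apart, and the highest RBPjcKO library lay below the lowest wild-type library. The log2 fold change was -1.30 (SE 0.10), so RBPjcKO cells kept 40.6% of the wild-type level with a 95% interval of 34.3% to 47.9% (adjusted p = 0.000982 in edgeR, over all genes tested). The counts cover the whole gene and include reads from outside the deleted exons. In bulk samples, fewer cells that express a gene and less RNA per cell cannot be told apart. The part of the other cell types, whose marker sums are given above, in the remaining Rbpj reads was not tested. RefSeq lists 3 Rbpj pseudogenes and the deposited table holds 0 of them, so reads shared with those copies cannot be set apart.

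A cDNA clone inside the gene, D130064K14 (chromosome 5, 53638632 to 53642067), covers part of an intron and the first 44 bases of exon 4 of 11 in the main protein-coding transcripts, while a transcript that GENCODE lists as retaining the intron covers it whole. It received 19, 20 and 25 counts in RBPjcKO libraries and 7, 12 and 20 counts in wild-type libraries. These came to 2.90%, 2.52% and 3.65% of the Rbpj count in RBPjcKO libraries and to 0.459%, 0.685% and 1.39% in wild-type libraries. The shares did not overlap between the groups, but their divisor is the Rbpj count, which was itself lower in the RBPjcKO libraries. The clone's own level was not called (log2 fold change 0.54, SE 0.47, adjusted p = 0.487 in the edgeR fit that included clones), and at these counts no difference in level was detectable.

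Of the 9 members, 2 passed the test, Rbpj lower and Maml3 higher, where 16.7% of the 14869 genes tested passed in either direction, 7.74% lower and 9% higher. All 9 passed the filter on low counts. Libraries of the groups did not overlap for 5 of the 9, namely Rbpj, Maml3, Kdm5a, Snw1 and L3mbtl3, where 40.3% of all genes tested had no overlap. Both counts include Rbpj, the gene deleted by design, and among its partners Maml3 alone passed. The median log2 fold change was -0.02 over the 9 members and -0.00469 over all genes tested. With so few members these shares were not set apart from those over all genes.

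**Figure D1:**
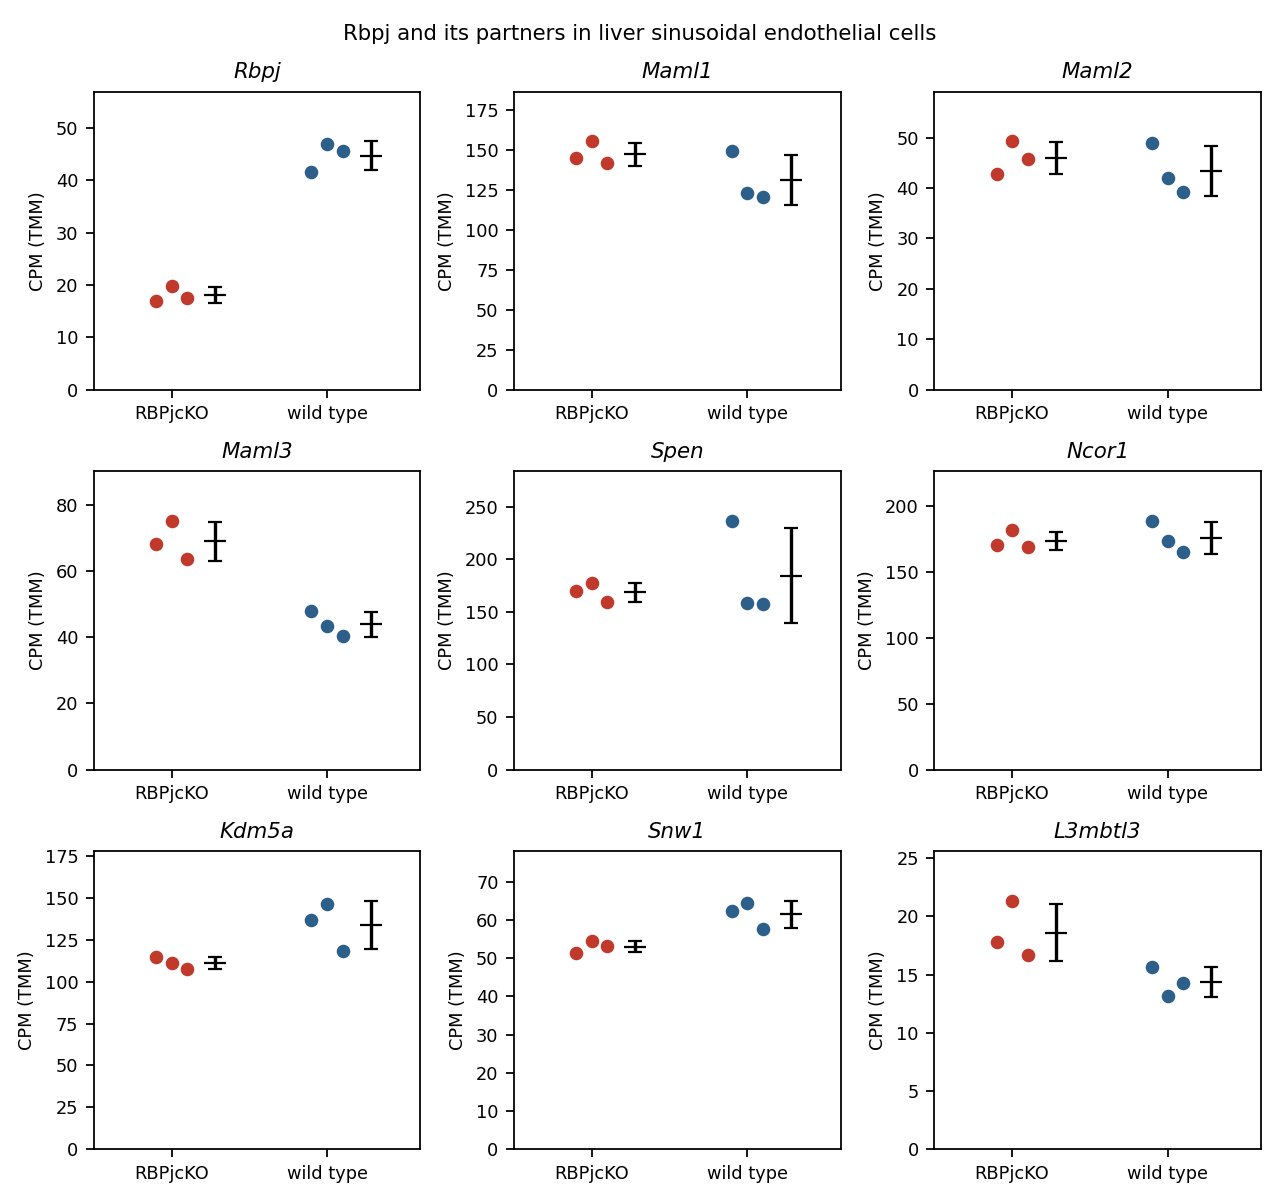
Level of each member in TMM-scaled CPM (vertical axes, from 0) in each library of RBPjcKO and wild-type cells; points are libraries, and the bar beside them is the mean with its SD over 3 libraries. Rbpj lies at 17.0 to 19.8 CPM in RBPjcKO libraries, below every wild-type library, and Maml3 at 63.5 to 75.0 CPM, above every wild-type library.

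Among the coactivators, Maml3 rose while Maml1 and Maml2 did not pass the test. Mastermind-like proteins bind in a groove formed by RBPJ and the Notch intracellular domain and bring in the acetyltransferase p300. Maml3 (chromosome 3, 51687613 to 52105006, minus strand) stood at 68.1, 75.0 and 63.5 CPM in RBPjcKO libraries, against 47.9, 43.3 and 40.3 CPM in wild-type libraries. Every RBPjcKO library was above every wild-type library. The rise was 1.57-fold (log2 fold change 0.65, SE 0.10, adjusted p = 0.00831 in edgeR). With the hepatocyte marker level as a covariate the log2 fold change was 0.70 and the adjusted p was 0.0691 by the same test, so the call was lost while the size was not smaller. That covariate, a mean log2 CPM, was 5.89, 6.16 and 7.36 in RBPjcKO libraries and 5.84, 5.00 and 5.43 in wild-type libraries. It did not overlap between the groups, so its part and that of genotype cannot be fully told apart.

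Clones that share exons at both ends of Maml3 were also higher in RBPjcKO libraries. Inside the deposited Maml3 span they are no separate reading of the gene. Entries at the same place each received the full count, as clones I0C0015L23 and I0C0036F07 did. Clone reads inside the span are therefore likely part of the Maml3 count too. Clone G730044P10 lies in the last exon and had 701, 764 and 723 counts in RBPjcKO libraries and 475, 471 and 401 in wild-type libraries. Its log2 fold change was 0.55 (SE 0.11, adjusted p = 0.0199 in the edgeR fit with clones). Clone I0C0015L23 lies in the first exon of transcript Maml3-202 only. It had 230, 237 and 201 counts in RBPjcKO libraries and 174, 149 and 106 in wild-type libraries. Its log2 fold change was 0.49 (SE 0.20, adjusted p = 0.142 in that fit). Clone C230025H14 also lies in the last exon, with 177 of its 1877 bases inside the deposited Maml3 span. It had 110, 164 and 134 counts in RBPjcKO libraries and 68, 57 and 73 in wild-type libraries, with a log2 fold change of 0.87 (SE 0.25, adjusted p = 0.0574 in that fit). G730044P10, I0C0015L23 and C230025H14 were each higher in every RBPjcKO library by CPM, and G730044P10 alone passed the test. The 13 clones of the locus that touch no Maml3 exon had 54, 86 and 58 counts in sum in RBPjcKO libraries and 46, 48 and 37 in wild-type libraries.

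Maml1 (chromosome 11, 50255635 to 50292336, minus strand) stood at 145, 156 and 142 CPM in RBPjcKO libraries and 149, 123 and 121 CPM in wild-type libraries. Wild-type replicate 1 lay within the RBPjcKO range, and the groups overlapped. The log2 fold change was 0.17 (95% interval -0.07 to 0.41, adjusted p = 0.286 in edgeR). Maml2 (chromosome 9, 13619989 to 13709533, plus strand) stood at 42.8, 49.3 and 45.8 CPM in RBPjcKO libraries and 48.9, 42.1 and 39.2 CPM in wild-type libraries, with a log2 fold change of 0.08 (95% interval -0.17 to 0.34). RefSeq starts the gene at 13296561, upstream of the deposited span, so reads from a first exon there were not in the Maml2 count.

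Because all 3 Mastermind-like genes were read in the same libraries, their ratios could be taken within a library. Maml3 made up 24.0%, 24.2% and 22.8% of the summed Mastermind-like level per length (RPKM, reads scaled to gene length and library total) in RBPjcKO libraries, and 17.4%, 18.6% and 18.0% in wild-type libraries. The shares did not overlap. The log2 ratio of Maml3 to Maml1 was -1.33 ± 0.05 in RBPjcKO libraries and -1.81 ± 0.07 in wild-type libraries (SD, n = 3 each), a difference of 0.48. The log2 ratio of Maml3 to Maml2 was 0.50 ± 0.10 in RBPjcKO libraries and -0.07 ± 0.04 in wild-type libraries, a difference of 0.57. Both differences had p = 0.10 by a two-sided exact permutation test, also after adjustment over the 2 ratios, and 0.10 is the smallest p that 3 against 3 libraries can give.

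Snw1 (chromosome 12, 87449910 to 87472299, minus strand) encodes SKIP, a splicing factor that also binds RBPJ and the Notch intracellular domain. Its level was 51.4, 54.4 and 53.1 CPM in RBPjcKO libraries, against 62.3, 64.4 and 57.5 CPM in wild-type libraries. All RBPjcKO libraries were below all wild-type libraries, by a small margin. The log2 fold change of -0.21 (SE 0.08, 95% interval -0.40 to -0.03) had an adjusted p of 0.108 in edgeR, so it did not pass. The gene shares 15 bases with Slirp on the other strand. Ncor1 likewise shares 16 bases with Ttc19, Spen 48 with Zbtb17 and Kdm5a 271 with Ccdc77. The sources do not state whether counting used strand. Inside Maml1, plus-strand clone C430028C19 had 8, 15 and 3 counts in RBPjcKO libraries and 10, 6 and 7 in wild-type libraries. A minus-strand clone over nearly the same bases had 8, 15 and 3, and 11, 6 and 7. Reads at that place were thus counted for entries on both strands. Opposite-strand clones also cover exon bases of members, as B430005K18 covers 586 of Maml1. Their part in the member counts was not tested.

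**Figure D2:**
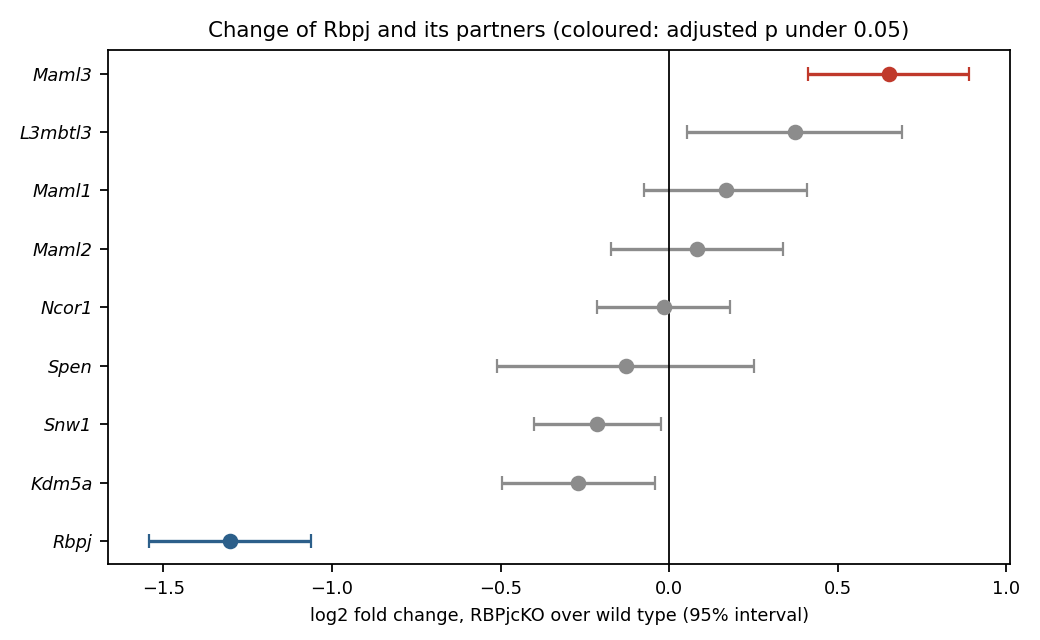
Log2 fold change of each member, RBPjcKO over wild type (horizontal axis), with its 95% interval from edgeR's quasi-likelihood fit; red marks a called rise, blue a called fall and grey no call. Rbpj at -1.30 and Maml3 at 0.65 are the called members, and the intervals of L3mbtl3, Snw1 and Kdm5a leave out 0 although their adjusted p missed the threshold.

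None of the 4 corepressors passed edgeR's test and none was called by DESeq2, while 2 of them, Kdm5a and L3mbtl3, had an unadjusted p under 0.05. Kdm5a (chromosome 6, 120364099 to 120444574, plus strand), which removes methyl groups from lysine 4 of histone H3, stood at 115, 111 and 108 CPM in RBPjcKO libraries and 137, 146 and 118 CPM in wild-type libraries. The libraries did not overlap, with wild-type replicate 3 nearest to the RBPjcKO group. Its log2 fold change was -0.27 (SE 0.10, 95% interval -0.50 to -0.04, adjusted p = 0.0969 in edgeR).

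L3mbtl3 (chromosome 10, 26275452 to 26375185, minus strand) encodes a reader of methylated lysine that competes with the Notch intracellular domain for RBPJ. It stood at 17.8, 21.3 and 16.7 CPM in RBPjcKO libraries and 15.7, 13.1 and 14.3 CPM in wild-type libraries. Every RBPjcKO library was higher, with a narrow gap between the nearest libraries. The log2 fold change was 0.37 (SE 0.14, 95% interval 0.05 to 0.69, adjusted p = 0.0999 by the same test).

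Spen (chromosome 4, 141467890 to 141538597, minus strand) encodes the large scaffold, also known as MINT or SHARP, that ties RBPJ to the NCOR complex. It stood at 170, 178 and 159 CPM in RBPjcKO libraries and 237, 159 and 158 CPM in wild-type libraries. Wild-type replicate 1 was far above the other five libraries. The log2 fold change was -0.13 (95% interval -0.51 to 0.25, adjusted p = 0.611 in edgeR), and it was 0.09 without wild-type replicate 1, so 1 library set its sign.

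Ncor1 (chromosome 11, 62316426 to 62457332, minus strand) encodes the nuclear receptor corepressor, which carries histone deacetylase 3. Its level was 171, 181 and 168 CPM in RBPjcKO libraries and 188, 173 and 165 CPM in wild-type libraries. The groups overlapped, and the log2 fold change was -0.02 with a 95% interval of -0.21 to 0.18, the narrowest of the corepressors. On a linear scale the interval ran from 86.3% to 113% of the wild-type level.

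Inside Kdm5a, a clone entry held a larger share of the gene's count in RBPjcKO libraries, though neither the clone nor the gene was called. B230110L10 (chromosome 6, 120439909 to 120441756) lies wholly in exon 28, the last exon, and had 646, 666 and 726 counts in RBPjcKO libraries and 459, 595 and 433 in wild-type libraries. It held 14.6%, 15.0% and 17.3% of the Kdm5a count in RBPjcKO libraries, against 9.17%, 10.9% and 11.6% in wild-type libraries. These shares did not overlap, and the exact permutation p was 0.10, the smallest possible. The clone's own log2 fold change was 0.31 (SE 0.13, adjusted p = 0.150 in the edgeR fit with clones), opposite in sign to that of the gene. A second clone in the same exon, B230332A17 near its end, held 2.30%, 2.27% and 2.20% of the Kdm5a count in RBPjcKO libraries and 0.859%, 1.92% and 2.49% in wild-type libraries, which overlapped. Both clones were described after their values were seen. Such shares were taken for 9 distinct clones that lie in exons of a member, counting all its GENCODE transcripts. Of these, D130064K14 of Rbpj, D630045G18 of Snw1 and D930050N10 of L3mbtl3 lie mostly outside the exons of protein-coding transcripts. The shares of B230110L10 and D130064K14 were the 2 that did not overlap between the groups. How often such shares do not overlap over all clones was not tested.

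**Figure D3:**
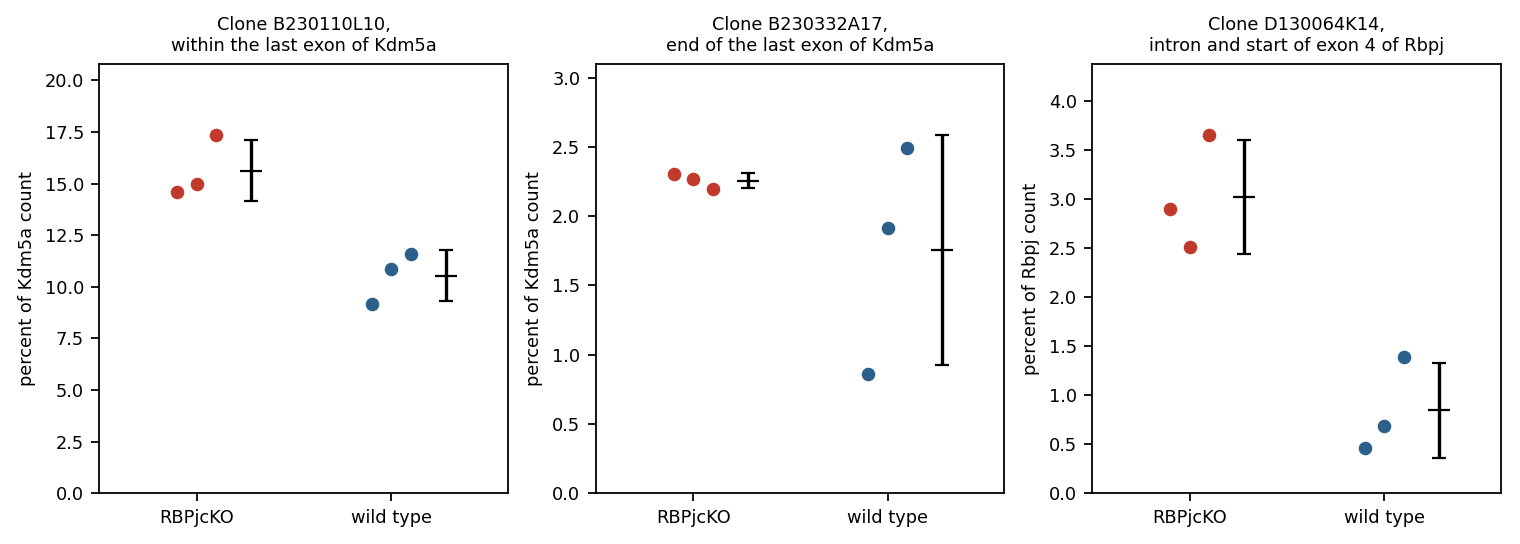
Share of a member's count that fell in a cDNA clone within it (vertical axes, percent, from 0), by group; points are libraries and bars are mean and SD over 3 libraries. The Kdm5a clone B230110L10 holds 14.6% to 17.3% in RBPjcKO and 9.17% to 11.6% in wild-type libraries, B230332A17 overlaps between groups, and the Rbpj clone D130064K14 holds 2.52% to 3.65% in RBPjcKO and 0.459% to 1.39% in wild-type libraries, of an Rbpj count that is itself lower in RBPjcKO libraries.

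Levels of different genes were compared per length, in RPKM. In RBPjcKO cells the order from high to low was Maml1 (22.0 ± 1.11 RPKM), Snw1 (19.4 ± 0.766), Ncor1 (12.9 ± 0.547), Spen (11.4 ± 0.580), Maml3 (8.76 ± 0.721), Kdm5a (8.38 ± 0.153), Maml2 (6.20 ± 0.495), L3mbtl3 (4.52 ± 0.592) and Rbpj (2.52 ± 0.222), as mean and SD over 3 libraries. In wild-type cells the order was Snw1 (22.8 ± 1.55 RPKM), Maml1 (19.7 ± 1.70), Ncor1 (13.2 ± 0.569), Spen (12.5 ± 2.61), Kdm5a (10.2 ± 1.18), Rbpj (6.29 ± 0.591), Maml2 (5.91 ± 0.504), Maml3 (5.63 ± 0.351) and L3mbtl3 (3.52 ± 0.201). Rbpj was thus the sixth of the members in wild-type cells, level with Maml2 within the spread of the libraries, and last in RBPjcKO cells, below every library of L3mbtl3. Maml3 was the eighth in wild-type cells and the fifth in RBPjcKO cells. Neighbours whose libraries overlapped were Maml3 and Kdm5a in RBPjcKO cells. In wild-type cells they were Snw1 and Maml1, Ncor1 and Spen, Spen and Kdm5a, Rbpj and Maml2, and Maml2 and Maml3.

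**Figure D4:**
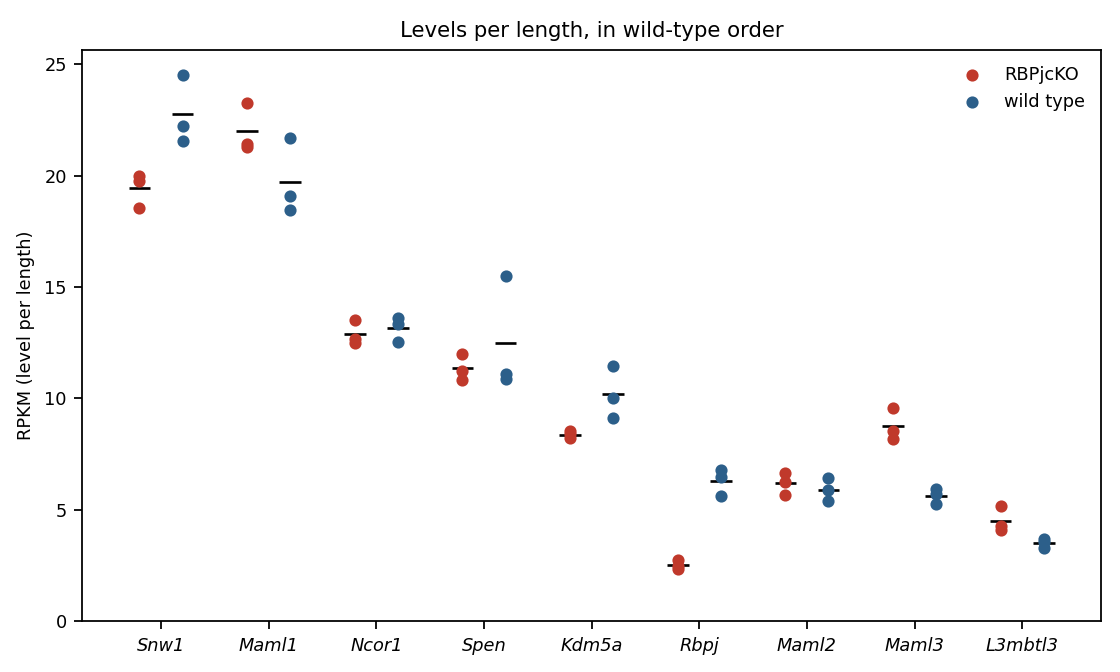
Level per length (RPKM, vertical axis from 0) of each member in each RBPjcKO library (red, left) and wild-type library (blue, right), with the group mean as a line; genes run in wild-type order. Rbpj averages 2.52 RPKM in RBPjcKO cells, the lowest of the members, and 6.29 RPKM in wild-type cells.

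Relative to Rbpj, partner transcripts stood higher in every RBPjcKO library than in any wild-type library. The summed RPKM of Maml1, Maml2 and Maml3 was 15.3, 14.3 and 14.5 times that of Rbpj in RBPjcKO libraries, against 6.04, 4.53 and 4.49 times in wild-type libraries. The summed RPKM of Spen, Ncor1, Kdm5a and L3mbtl3 was 15.7, 14.2 and 14.5 times that of Rbpj in RBPjcKO libraries and 7.61, 5.79 and 5.57 times in wild-type libraries. For Snw1 the ratio to Rbpj was 7.99, 7.25 and 7.97 in RBPjcKO libraries and 3.95, 3.62 and 3.33 in wild-type libraries. None of the 3 ratios overlapped between the groups, and the Rbpj level is the divisor in each.

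The balance between the Mastermind-like genes and the corepressors, which leaves out Rbpj and the coactivator Snw1, was also without overlap. Snw1 was lower in every RBPjcKO library, and the Mastermind-like sum holds the called rise of Maml3. How often such ratios do not overlap for other genes was not tested. The summed Mastermind-like RPKM was 35.5, 39.5 and 35.9 in RBPjcKO libraries and 34.0, 30.7 and 29.1 in wild-type libraries. The summed corepressor RPKM was 36.5, 39.1 and 35.8 in RBPjcKO libraries and 42.9, 39.2 and 36.1 in wild-type libraries. Their ratio was 0.972, 1.01 and 1.00 in RBPjcKO libraries, against 0.793, 0.782 and 0.807 in wild-type libraries. Within a group the libraries lay close together, at 0.994 ± 0.0199 in RBPjcKO and 0.794 ± 0.0122 in wild-type cells (SD, n = 3 each), and the exact permutation p was 0.10, the smallest possible. The corepressor sums alone overlapped between the groups (exact permutation p = 0.40).

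**Figure D5:**
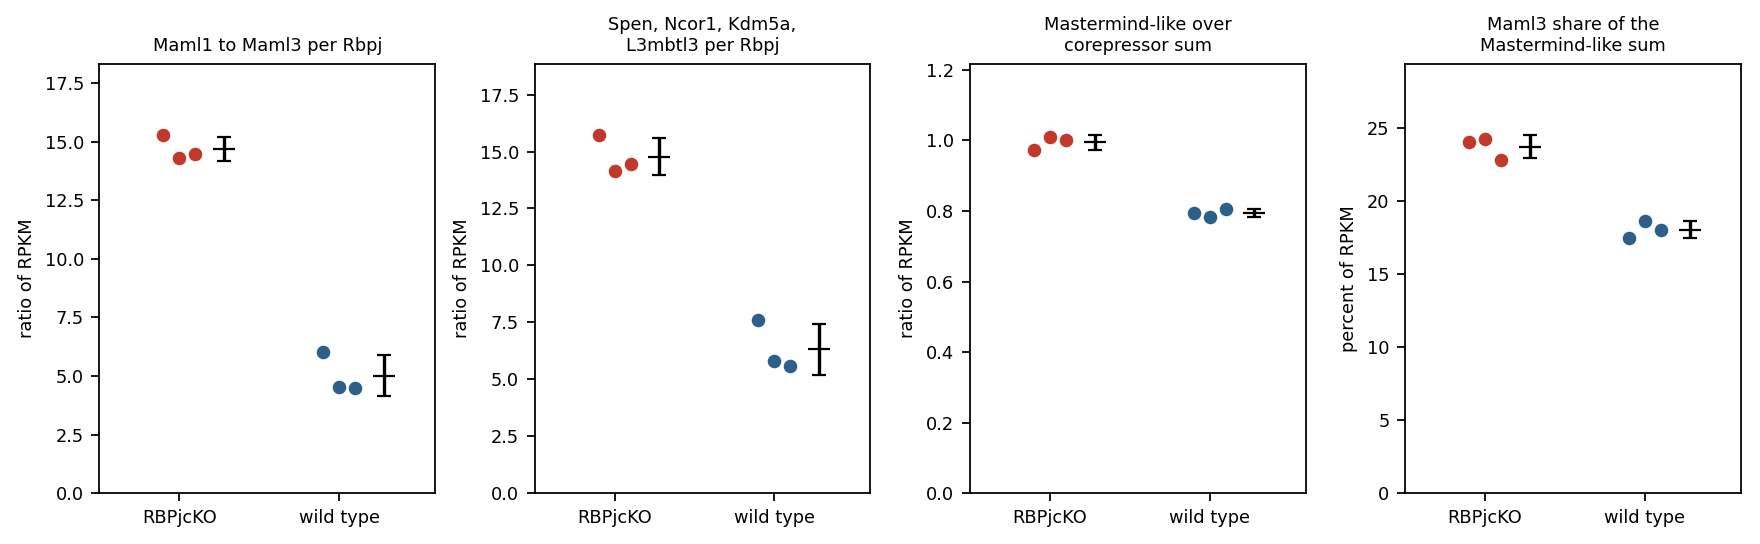
Ratios of RPKM within a library (vertical axes, from 0) for the Mastermind-like genes per Rbpj, the corepressors per Rbpj and the Mastermind-like over the corepressor sum, and the share of Maml3 in the Mastermind-like sum; points are libraries and bars are mean and SD over 3 libraries. In each panel the RBPjcKO libraries lie above the wild-type libraries, as with 0.972 to 1.01 against 0.782 to 0.807 for the Mastermind-like over corepressor ratio. The panels per Rbpj divide by a level that is itself lower in RBPjcKO libraries, and the corepressor sums alone overlap between the groups.

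Close relatives of the members were then read. Of 11 paralogs 9 were tested, and none passed in edgeR's test or in DESeq2, where 16.7% of all genes tested passed in edgeR. Of those 9, 3 had an unadjusted p under 0.05, Kdm5c and L3mbtl2 among them, and the same 3 had groups that did not overlap, where 40.3% of all genes had none. Rbpjl, the tissue-restricted relative of Rbpj, had 4, 8 and 7 counts in RBPjcKO libraries and 4, 1 and 1 in wild-type libraries, below the filter on low counts. L3mbtl4 had no count in any library. Kdm5c stood at 136 ± 8.08 CPM in RBPjcKO and 113 ± 12.1 CPM in wild-type cells (adjusted p = 0.107 in edgeR), and L3mbtl2 at 25.2 ± 4.19 CPM in RBPjcKO and 31.7 ± 1.05 CPM in wild-type cells (adjusted p = 0.129 in edgeR). Kdm5b, Mamld1, Rbm15, Rbm15b and L3mbtl1 overlapped between the groups. The Y-linked Kdm5d was read in every library, at 10.8 to 14.5 CPM in RBPjcKO and 13.9 to 18.9 CPM in wild-type libraries, and overlapped too.

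Of 19 further corepressor genes in the table, the histone deacetylases, CtBP and Groucho-related genes included, none passed edgeR's test. Over all genes tested, 16.7% passed it. Of the 19, 6 had an unadjusted p under 0.05 and 8 (42.1%) had groups without overlap, where 40.3% of all genes had none. DESeq2 called 4 of the 19, and 3632 of the 14869 genes tested over the whole table. The 4, named after their values were seen, were Sap30 and Tle3, higher, and Fhl1 and Tle4, lower, in RBPjcKO cells. The count of 0 therefore belongs to edgeR's test. Highest in mean CPM over the 6 libraries, a scale not corrected for gene length, were Hdac1, at 178 CPM in RBPjcKO and 202 CPM in wild-type cells, and Ctbp1, at 178 CPM in RBPjcKO and 167 CPM in wild-type cells. Of 11 further coactivator genes 1 (9.09%) passed, Kat2a, which encodes the acetyltransferase GCN5. It stood at 63.4, 74.6 and 61.6 CPM in RBPjcKO libraries and 48.6, 47.5 and 45.9 CPM in wild-type libraries (log2 fold change 0.49, SE 0.10, adjusted p = 0.0169 in edgeR). The acetyltransferase, Mediator kinase and other genes on that list did not pass. The median log2 fold change was -0.07 for the corepressor list and -0.10 for the coactivator list.

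The same reading was made for receptors, ligands and targets of the pathway. Of 8 receptors and ligands tested, 2 rose (Notch4 and Dll1) and 2 fell (Jag1 and Notch3) in edgeR. That is 50%, where 16.7% of all genes tested passed. DESeq2 called 5 of the 8, with Jag2, named after its values were seen, higher as well. Of 18 genes of receptor processing and turnover, 3 rose and 2 fell (27.8% called). Furin, the protease that cleaves the receptor precursor, stood at 274 ± 29.0 CPM in RBPjcKO and 162 ± 9.03 CPM in wild-type cells (log2 fold change 0.76). Mfng, a glycosyltransferase that modifies the receptor, rose by 0.48 on the log2 scale, and Aph1a, a gamma-secretase subunit gene named after its values were seen, by 0.38. Aph1b and Aph1c, near-identical gamma-secretase subunit genes between which reads can be split uncertainly, had log2 fold changes of -1.37 and -1.01. Of 12 target genes tested 6 fell and 1 rose (58.3% called), with a median log2 fold change of -0.85. Of the 6, 2, Jag1 and Notch3, are also among the receptors and ligands. In the same libraries edgeR called 3 of 5 cholangiocyte markers and 2 of 9 stellate cell and fibroblast markers lower, as given above. The summed stellate cell and fibroblast markers overlapped between the groups. The part of these cells in the target list was not tested. Hes1, the repressor that is the best known RBPJ target, stood at 64.3, 84.6 and 78.9 CPM in RBPjcKO libraries, against 171, 203 and 194 CPM in wild-type libraries. Other falls with large size were Gja5, with 8, 26 and 57 counts in RBPjcKO libraries and 333, 332 and 210 in wild-type libraries, and Jag1. Myc rose, at 353 ± 38.5 CPM in RBPjcKO and 33.7 ± 8.30 CPM in wild-type cells. Hey1, Hey2, Heyl, Nrarp and Dtx1, named after their values were seen, were not called and overlapped between the groups. Of all 75 genes tested on the 6 lists of paralogs, machinery and pathway, 15 (20%) passed, beside the 16.7% of all genes. These counts depended on single libraries: without wild-type replicate 2 the lists held 6 calls, with 796 over all genes, without wild-type replicate 3 they held 8 and 1549, and without RBPjcKO replicate 2 they held 11 and 1433, against 2489 over all genes with every library. With the hepatocyte marker covariate, whose values did not overlap between the groups, the counts were 5 and 328.

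The genes whose level followed Rbpj most closely over the 6 libraries were ranked by Pearson's r of log2 CPM among 13289 genes of at least 1 CPM. The closest were Crebl2 (r = 0.9992), Gskip (0.9986), Pla2g16 (0.9970), Tmem62 (0.9966) and Hoxb6 (0.9956). All had a lower mean in RBPjcKO cells, from 19.6 CPM for Crebl2 against 38.5 CPM in wild-type cells down to 2.31 CPM for Hoxb6 against 4.75 CPM. For Maml3 the closest were 2210404O07Rik (0.9978), Phc2 (0.9951), Pald1 (0.9951), Mir5121 (0.9950) and Ino80e (0.9939). These values describe 6 libraries in 2 groups, so most of each r is the difference between groups, and no p is given.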

How the data were processed

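Per the labels' protocols, RNA was extracted with Trizol from isolated cells and sequenced as paired reads. TopHat2 2.0.13 (after bcl2fastq) aligned the reads to mm10, GRCm38, per the submitters' processing notes. Which tool counted them, and whether by strand, was not given in the sources used here. Per the file headers, the authors deposited raw read counts and RPKM values per gene or cDNA clone, and the RPKM of each library implied a total equal to its count column, at a ratio of 1.0000. Gene length in bases, another deposited column, was used in that check only.

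Libraries were grouped by the genotype label. Counts of named genes, without clones, passed filterByExpr at a minimum count of 10 and a total of 15. After TMM scaling they were tested by quasi-likelihood in edgeR 4.0.16 (R 4.3.3), and p-values were adjusted by Benjamini and Hochberg's method over 14869 genes. Called means an adjusted p under 0.05. The SE is the log2 fold change over the square root of F, and 95% intervals use it, both approximate. Clone tests come from a fit that included clones. Ratios used RPKM. The pipeline was tested on simulated data.

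The members, lists, tests and alternatives were chosen with earlier results of these data known. Genes named are the members, their paralogs (1 is not reported here), up to 4 called genes per list by size (the 2 most abundant if none), the 5 most alike in level to Rbpj and to Maml3, and entries overlapping a member. Alternatives used DESeq2 1.42.0 and limma 3.58.1. Exons are from GENCODE and promoters from RefSeq, both on GRCm38. Rita1 and Kmt2d were not analysed here.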

Additional observations from a re-analysis of the deposited data

How the results depend on the processing

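The number of members called was 2 in the 6 fits without 1 library and in 7 of 8 other alternatives (DESeq2, no scaling beyond totals, upper-quartile scaling, 2 other filters, clones included, limma on log2(RPKM + 1)). It was 1 with the hepatocyte marker covariate, where Maml3 had a log2 fold change of 0.6978 (adjusted p = 0.0691 in edgeR). That covariate did not overlap between the groups and cannot be fully told apart from genotype. Rbpj kept its call in all 14, at log2 fold changes of -1.369 to -1.233 in the fits on counts. With limma on log2(RPKM + 1), where the added 1 pulls low levels together, the Rbpj value was -1.049. Maml3 kept its call in each fit without a library, with adjusted p of 0.0132 to 0.0475. No other member was called in any alternative. Spen ran from -0.2344 to 0.09087 without a library and reversed without wild-type replicate 1. Ncor1 ran from -0.06393 to 0.03778 and reversed without RBPjcKO replicate 3 (0.005933) or wild-type replicate 1 (0.03778). Genes called over the whole table ran from 796 to 1836 without a library (796 without wild-type replicate 2, 1549 without wild-type replicate 3, 1433 without RBPjcKO replicate 2). They numbered 328 with the covariate and 3632 with DESeq2, against 2489. Calls on the 6 coregulator and pathway lists ran from 6 to 13 without a library, 6 without wild-type replicate 2 and 8 without wild-type replicate 3, and numbered 5 with the covariate, against 15; the cause was not tested. The Maml3 ratios kept their direction, at 0.447 to 0.5124 for Maml1 and 0.5211 to 0.6225 for Maml2 without a library. No scaling moved the median of all genes by over 0.1. No paired analysis was possible because the labels give no replicate numbers shared between the groups. Depth limits the clone counts, several of which were under 25 in a library, and with 3 libraries a group the exact tests cannot go below 0.10.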
